A study of Mus musculus with 8 samples.

Results

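The genes described here take up, store, export and sense iron or free it from heme. They are 10 of the 49315 gene identifiers measured: Tfrc, Hmox1, Fth1, Ftl1, Slc40a1, Slc11a2, Ireb2, Aco1, Ncoa4 and Steap3. They were chosen by name on the measured KO and WT levels of Tfrc, lower in all 4 knockouts, and of Hmox1, higher in all 4, so the KO minus WT values of these genes are given as a description, with no test. Of the 10 genes, 9 passed the filter on low values and Steap3 did not.

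RNA came from 4 lines of mouse pancreatic ductal adenocarcinoma cells, named 6694c2, 2838c3, 6499c4 and 6419c5. There was 1 library of the C1galt1c1-KO cells and 1 of the WT parent for every line, so 4 KO and 4 WT libraries. All cultures grew in the same high-glucose medium with fetal bovine serum, and no group was given or deprived of iron. C1galt1c1, also called Cosmc, encodes the chaperone of the core 1 O-glycan synthase, and cells without it carry the Tn antigen. The labels do not say how the knockout was made, whether a KO line is 1 clone, or whether a culture was repeated. No iron, heme or protein was measured. Nothing repeats the comparison inside a line, and p-values measure the spread between these libraries.

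Cells take up iron bound to transferrin through the transferrin receptor Tfrc, which carries it into endosomes. There it is reduced by STEAP enzymes and moved into the cytosol by Slc11a2. Iron that is not used is stored in ferritin, built from Fth1 and Ftl1 chains, released again when Ncoa4 delivers ferritin to lysosomes, or exported by ferroportin, Slc40a1. Hmox1 opens the heme ring and sets iron free. The iron regulatory proteins, encoded by Aco1 and Ireb2, bind a hairpin called the iron-responsive element when iron is scarce. Bound in the 3' UTR of Tfrc they protect the mRNA from decay, and bound in the 5' UTR of ferritin and ferroportin mRNAs they block translation. Of these effects, the one on Tfrc changes an mRNA level directly, while block and release of ferritin translation need not change its mRNA.

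The hairpins are shown because they separate the genes read at the level of mRNA from those read at the level of translation. The letters CNNNNNCAGTGN were searched on the transcript strand of annotated UTRs, with any base but G after CAGTG and 5 base pairs, G with T allowed, between the stems on both sides of the loop. Such a match lies in the 5' UTR of 0.0966% of 20696 canonical transcripts and in the 3' UTR of 0.432% of 21536. Among the 10 genes it was found in the 3' UTR of Tfrc, 4 times within 521 bases, and once each in the 5' UTR of Fth1, Ftl1 and Slc40a1. A match is a description of these letters, not a measured binding site. Each sequence is 30 bases of GENCODE transcript sequence on GRCm39, in DNA letters, and capitals mark the loop of 6 bases.
Tfrc, 3' UTR, chr16:32450037-32450066, plus strand: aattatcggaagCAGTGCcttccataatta
Tfrc, 3' UTR, chr16:32450416-32450445, plus strand: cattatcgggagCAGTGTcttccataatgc
Tfrc, 3' UTR, chr16:32450481-32450510, plus strand: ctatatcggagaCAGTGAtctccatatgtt
Tfrc, 3' UTR, chr16:32450528-32450557, plus strand: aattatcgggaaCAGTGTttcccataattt
Fth1, 5' UTR, chr19:9960096-9960125, plus strand: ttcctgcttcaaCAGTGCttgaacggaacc
Ftl1, 5' UTR, chr7:45109202-45109231, minus strand: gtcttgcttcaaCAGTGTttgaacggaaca
Slc40a1, 5' UTR, chr1:45964624-45964653, minus strand: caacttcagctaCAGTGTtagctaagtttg
All Tfrc hairpins share the letters tatcgg before the loop and differ in the bases between these letters and the loop. The first and second of them also share cttccataat after the loop. Fth1 and Ftl1 share the letters tgcttcaa before the loop and ttgaacggaac after its last base.

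Levels are given as TPM, transcript shares scaled by gene length that add up to 1000000 in each library and keep no read depth. The targeted gene C1galt1c1 stood at 10.9 to 19.0 TPM in KO libraries, against 37.0 to 54.2 TPM in WT libraries. Identifiers without a gene name held 12.5% and 9.69% of all TPM in the KO libraries of 6694c2 and 6419c5 and 0.713% to 1.33% in the 6 others. The median log2 change was -0.15 over the 12900 genes kept and -0.10 without both of those lines. With identifiers without a name and small or ribosomal RNAs removed and TPM rescaled, it was -0.07 over 12682 genes. The unnamed RNA was not removed alone, and its part in this shift was not tested further. Differences below are therefore on the log2(TPM + 1) scale relative to the median of all genes, in a line or overall. With limma, 0 of 12900 genes (0.00%) passed a Benjamini-Hochberg adjusted p under 0.05 for KO against WT. The KO against WT p-values test the difference before the median was subtracted, so every call also carries the median of -0.15. A call need not match the relative difference and SE printed beside it. An unadjusted p under 0.05 was reached by 1137 genes (8.81%), of which 111 were higher in KO (0.860% of all genes) and 1026 lower (7.95%). Of these 1137 genes 90.2% were lower, against 56.7% after median-ratio scaling and 50.8% after quantile normalization.

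The transferrin receptor transcript was lower in every KO library than in any WT library. Tfrc (ENSMUSG00000022797, chromosome 16, 32427556 to 32451612) stood at 57.0, 38.2, 90.8 and 70.3 TPM in the KO libraries of 6694c2, 2838c3, 6499c4 and 6419c5, against 155, 99.6, 155 and 168 TPM in the WT libraries. The groups did not overlap, which was so, in this direction, for 1.34% of all genes. The KO level was 36.7%, 38.4%, 58.6% and 41.8% of the parental level in the same order of lines, so the 6499c4 pair differed least. Relative to all genes the differences were -1.20, -1.28, -0.66 and -1.09, each among the lowest 4.05% of genes of its line. The overall estimate was -1.05 with an SE of 0.16 (n = 4 lines). It was -0.96 without the lines 6694c2 and 6419c5, whose KO libraries hold the unnamed RNA.

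Tfrc is also known to follow cell growth, and cell cycle genes differed between some of the same pairs. The median of 15 G1/S genes was -0.60 in 6694c2, -1.80 in 2838c3, -0.23 in 6499c4 and 0.20 in 6419c5. The median of 14 G2/M genes was -0.35, -2.94, -0.11 and 0.99. The part of the cell cycle in the Tfrc values was not tested.

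Heme oxygenase 1 differed in the other direction, with sizes that were less alike. Hmox1 (ENSMUSG00000005413, chromosome 8, 75820241 to 75827217) stood at 347, 118, 68.7 and 84.8 TPM in the KO libraries of 6694c2, 2838c3, 6499c4 and 6419c5, against 71.2, 54.0, 41.4 and 65.3 TPM in the WT libraries. Each KO library was above its own parent, but the groups overlapped, since the 6499c4 KO library lay below the 6694c2 WT library. The KO level was 4.87, 2.18, 1.66 and 1.30 times the parental level. The relative differences were 2.50, 1.19, 0.82 and 0.53, with 0.264%, 3.91%, 1.83% and 7.90% of genes in the line above them. The overall estimate was 1.27 with an SE of 0.30, and 0.86 without 6694c2, the line with the largest difference.

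Hmox1 is known to respond to NRF2, to the BACH1 repressor and to several stresses, and lists of such genes are given beside it. The median of 18 NRF2 targets was 0.55 in 6694c2, -0.79 in 2838c3, -0.09 in 6499c4 and 0.24 in 6419c5. Nqo1, a standard NRF2 target, stood at 282, 24.2, 0.711 and 18.9 TPM in the KO libraries of 6694c2, 2838c3, 6499c4 and 6419c5, against 120, 148, 1.27 and 7.10 TPM in the WT libraries. It was thus higher in KO in 6694c2 and 6419c5 and lower in 2838c3 and 6499c4. The median of 10 ATF4 stress response genes was 1.67, 0.15, 0.18 and 1.99 in the same order of lines. The part of these responses in the Hmox1 values was not tested.

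**Figure D1:**
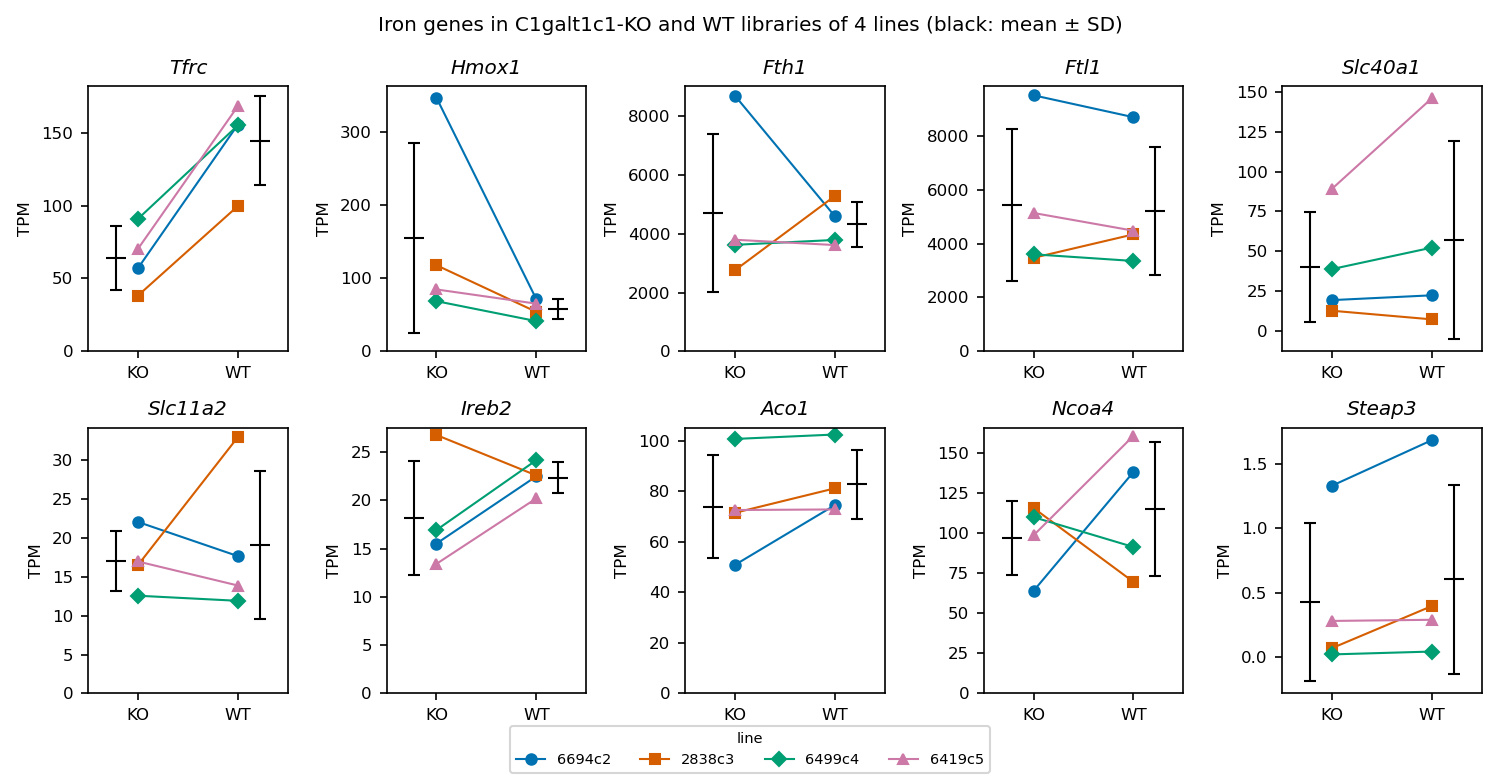
Levels of the 10 iron genes in TPM (vertical axes, linear, 1 scale per gene) in KO and WT libraries, with 1 marker per library, a line joining the libraries of a cell line and black bars for the mean ± SD of 4 libraries. Tfrc lies between 38.2 and 90.8 TPM in KO libraries and between 99.6 and 168 TPM in WT libraries, while the groups of the other genes overlap.

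Ferritin transcripts were among the abundant ones and did not differ in 1 direction. Fth1, the heavy chain with the ferroxidase site (ENSMUSG00000024661, chromosome 19, 9957911 to 9962462), stood at 8688, 2759, 3623 and 3795 TPM in the KO libraries of 6694c2, 2838c3, 6499c4 and 6419c5, against 4589, 5285, 3789 and 3614 TPM in the WT libraries. It was higher in KO in 6694c2, lower in 2838c3 and close to the parent in the other lines. Its relative differences were 1.15, -0.86, 0.04 and 0.23, with an overall estimate of 0.14 and an SE of 0.30.

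The light chain varied less between genotypes. Ftl1 (ENSMUSG00000050708, chromosome 7, 45107367 to 45109308) stood at 9497, 3471, 3601 and 5133 TPM in the KO libraries, against 8684, 4340, 3354 and 4476 TPM in the WT libraries. Its relative differences were 0.36, -0.24, 0.21 and 0.35, with an estimate of 0.17 and an SE of 0.18. After quantile normalization the estimates turned to -0.13 for Fth1 and -0.23 for Ftl1. The Fth1 estimate was also -0.18 without 6694c2 and 0.48 without 2838c3, and the Ftl1 estimate 0.32 without 2838c3 and 0.10 without 6419c5. Without both 6694c2 and 6419c5 the estimates were -0.40 for Fth1 and -0.01 for Ftl1. Ferritin has processed copies in the genome with which reads can be shared. The highest of them, Ftl1-ps1, was at 15.9 to 42.3 TPM in KO libraries and 15.3 to 37.2 TPM in WT libraries. The ferritin values carry an uncertainty from shared reads, whose size was not measured.

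Together both chains made up 1.82% of all TPM in the KO library of 6694c2 against 1.33% in its parent, and 0.623% in that of 2838c3 against 0.963% in its parent. In 6499c4 the shares were 0.722% in KO and 0.714% in WT, and in 6419c5 0.893% and 0.809%. The ratio of Fth1 to Ftl1 TPM was 0.915, 0.795, 1.01 and 0.739 in the KO libraries of 6694c2, 2838c3, 6499c4 and 6419c5, against 0.528, 1.22, 1.13 and 0.807 in the WT libraries. The ratio was thus higher in KO in 6694c2 and lower in KO in the 3 other lines.

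Ferroportin, the only known iron exporter of mammalian cells, had levels that depended on the line. Slc40a1 (ENSMUSG00000025993, chromosome 1, 45947211 to 45965683) stood at 19.2, 12.5, 38.7 and 89.3 TPM in the KO libraries of 6694c2, 2838c3, 6499c4 and 6419c5, against 22.3, 7.11, 52.3 and 146 TPM in the WT libraries. The lines had the same order in both genotypes. KO was above WT in 2838c3 and below it in the 3 other lines on the TPM scale. The relative differences were 0.03, 0.82, -0.32 and -0.55.

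Slc11a2, the divalent metal transporter (ENSMUSG00000023030, chromosome 15, 100285776 to 100322953), has mRNA forms with and without a described iron-responsive element, which gene-level TPM cannot separate, and the strict search found no hairpin in it. It stood at 22.1, 16.5, 12.6 and 17.0 TPM in the KO libraries, against 17.7, 33.0, 11.9 and 13.9 TPM in the WT libraries of 6694c2, 2838c3, 6499c4 and 6419c5. The 2838c3 WT library was the highest of all, and its KO library was at 50.1% of it. The relative differences were 0.53, -0.88, 0.18 and 0.43. Steap3, a ferric reductase best known from red cell precursors, was at 1.33, 0.0685, 0.0193 and 0.280 TPM in the KO libraries against 1.69, 0.396, 0.0416 and 0.289 TPM in the WT libraries, so it passed 1 TPM in the line 6694c2 alone. Of its relatives, Steap1 was at 45.0 to 168 TPM in KO and 59.3 to 76.0 TPM in WT libraries, and Steap2 at 29.5 to 39.7 TPM in KO and 37.9 to 45.0 TPM in WT libraries.

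The genes of the iron sensors had small differences, at most 0.40 in size in any line. Ireb2, which encodes the iron regulatory protein that is degraded when iron is present (ENSMUSG00000032293, chromosome 9, 54770970 to 54820011), stood at 15.5, 26.7, 16.9 and 13.4 TPM in the KO libraries of 6694c2, 2838c3, 6499c4 and 6419c5, against 22.5, 22.6, 24.2 and 20.2 TPM in the WT libraries. It was lower in KO in 3 lines and higher in 2838c3, with an estimate of -0.18 and an SE of 0.18. That estimate was -0.35 without 2838c3, and -0.12 without either 6499c4 or 6419c5. Aco1 (ENSMUSG00000028405, chromosome 4, 40142998 to 40199010), whose protein switches between aconitase and iron regulatory protein with its iron-sulfur cluster, stood at 50.9, 71.5, 101 and 72.6 TPM in the KO libraries, against 74.6, 81.2, 103 and 72.9 TPM in the WT libraries. Its estimate was -0.04 with an SE of 0.15, and between -0.11 and 0.06 with 1 line left out. Both proteins are controlled after translation, which these data do not show.

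Ncoa4, the receptor that carries ferritin to lysosomes (ENSMUSG00000056234, chromosome 14, 31881822 to 31902234), differed by line. It stood at 64.0, 116, 110 and 98.6 TPM in the KO libraries of 6694c2, 2838c3, 6499c4 and 6419c5, against 138, 69.5, 91.3 and 161 TPM in the WT libraries. It was lower in KO in 6694c2 and 6419c5, at -0.87 and -0.54, and higher in 2838c3 and 6499c4, at 0.81 and 0.37. The median of 12 hypoxia and glycolysis genes had the same signs, at -1.24 and -0.39 in 6694c2 and 6419c5 and 2.02 and 0.53 in 2838c3 and 6499c4, and its part in the Ncoa4 values was not tested. Ncoa4 overlaps the gene Timm23 on the opposite strand, at 93.1 to 185 TPM in KO and 78.3 to 178 TPM in WT libraries. No source used here gives the strand setting of the counting, so reads of the overlap may be shared.

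**Figure D2:**
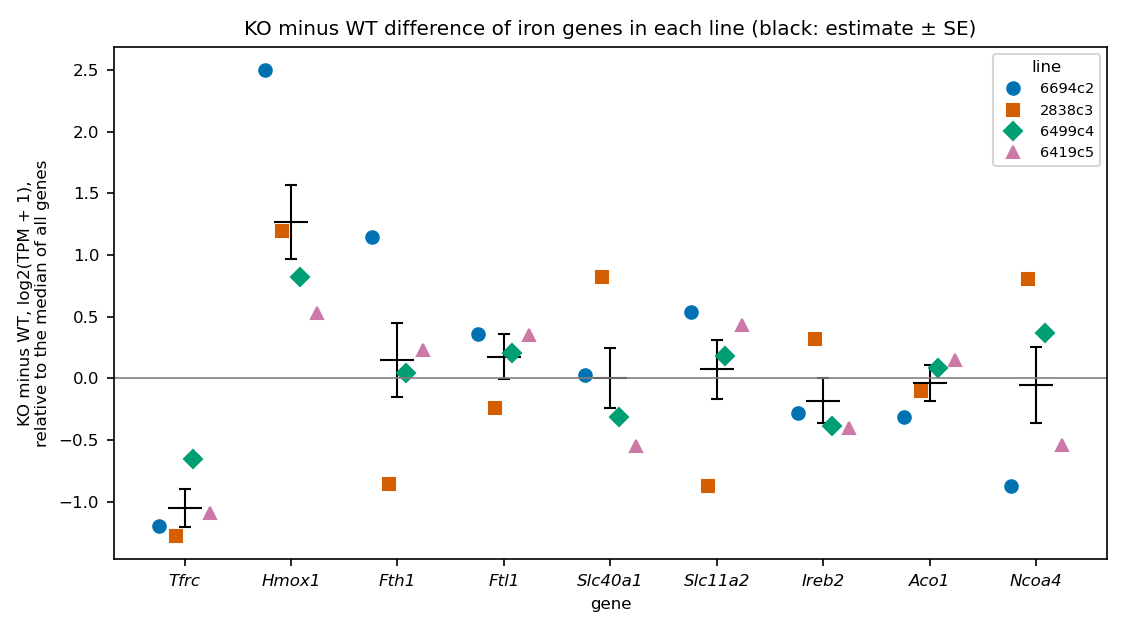
KO minus WT difference of each gene past the filter on low values, on the log2(TPM + 1) scale relative to the median of all genes (vertical axis), with 1 marker per line and black bars for the limma estimate ± SE over 4 lines. Tfrc lies below 0 and Hmox1 above 0 in all 4 lines, while the markers of the other 7 genes lie on both sides of 0.

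Of the 9 genes, 2 kept 1 direction in all 4 lines, Tfrc and Hmox1, which the choice of the list had fixed. Of all genes 6.43% were higher and 6.79% lower in all 4 lines, 13.2% in either direction. The other 7 had both directions, and for 4 of them 2838c3 was the line that stood alone. Relative to the median, Fth1, Ftl1 and Slc11a2 were higher in KO in 6694c2, 6499c4 and 6419c5 and lower in 2838c3, and Ireb2 had the reverse pattern. On the TPM scale Fth1 was lower in KO in 6499c4 as well, at 95.6% of its parent. Of all genes, 16.8% had 1 direction in those 3 lines and the opposite one in 2838c3. Without 2838c3, 6 of the 9 genes had 1 direction in the remaining lines. These were Fth1, Ftl1, Slc11a2 and Ireb2, and also Tfrc and Hmox1, whose directions the choice of the list had fixed. Of all genes 30.0% had 1 direction in those lines. The count of 6 cannot be weighed against that share, because it holds the chosen genes and 2838c3 was left out after its values were seen. The size was small in 6499c4, where Fth1 was at 0.04 and Slc11a2 at 0.18, where Fth1 changed sign with no filter on low values, and quantile normalization changed signs of Fth1 and Ftl1 in some lines. This split of the lines was seen in the data and not tested.

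Levels were also compared between lines, whichever the genotype, which the choice of genes did not use. By limma's moderated F-test on the line terms, with p-values adjusted over all genes, 2178 of 12900 genes (16.9%) passed the threshold of 0.05. Of the 9 iron genes 2 did, Slc40a1 (limma, adjusted p = 0.0039) and Ftl1 (limma, adjusted p = 0.0359). A count of 2 in 9 is near the share of all genes, and it was 1 without 6694c2, 6499c4 or 6419c5. The count of all genes was 1437 without 6694c2, 3677 without 2838c3, 657 without 6499c4 and 681 without 6419c5. Slc40a1 averaged 118 TPM in 6419c5, 45.5 in 6499c4, 20.7 in 6694c2 and 9.83 in 2838c3. By limma contrasts of 2 lines, 6419c5 was higher than 6694c2 and 2838c3 (limma, adjusted p = 0.00654 and adjusted p = 0.00193), and 6499c4 was higher than 2838c3 (limma, adjusted p = 0.0142). Neighbours in this order did not pass: limma's adjusted values were 0.0813, 0.094 and 0.176 from the highest pair down. The adjusted p of Slc40a1 over lines stayed between 0.00145 and 0.0398 under the settings run for this test, which all kept the line terms.

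Ftl1 averaged 9091 TPM in 6694c2, against 4805 in 6419c5, 3906 in 2838c3 and 3477 in 6499c4. The contrast of 6694c2 with 6499c4 passed (limma, adjusted p = 0.0216). Those with 6419c5 and 2838c3 did not, with limma's adjusted values of 0.0562 and 0.0664, nor did any among the 3 lower lines, with 0.364 to 0.746. The F-test call for Ftl1 was lost without 6694c2 (0.471), without 6499c4 (0.137), without 6419c5 (0.0929) and with no filter on low values (0.261). Tfrc was lowest in 2838c3 within each genotype, but its adjusted limma p over lines was 0.0783 (0.0452 after quantile normalization). Hmox1, Aco1, Slc11a2, Ireb2, Fth1 and Ncoa4 had adjusted limma p-values from 0.127 to 0.761.

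**Figure D3:**
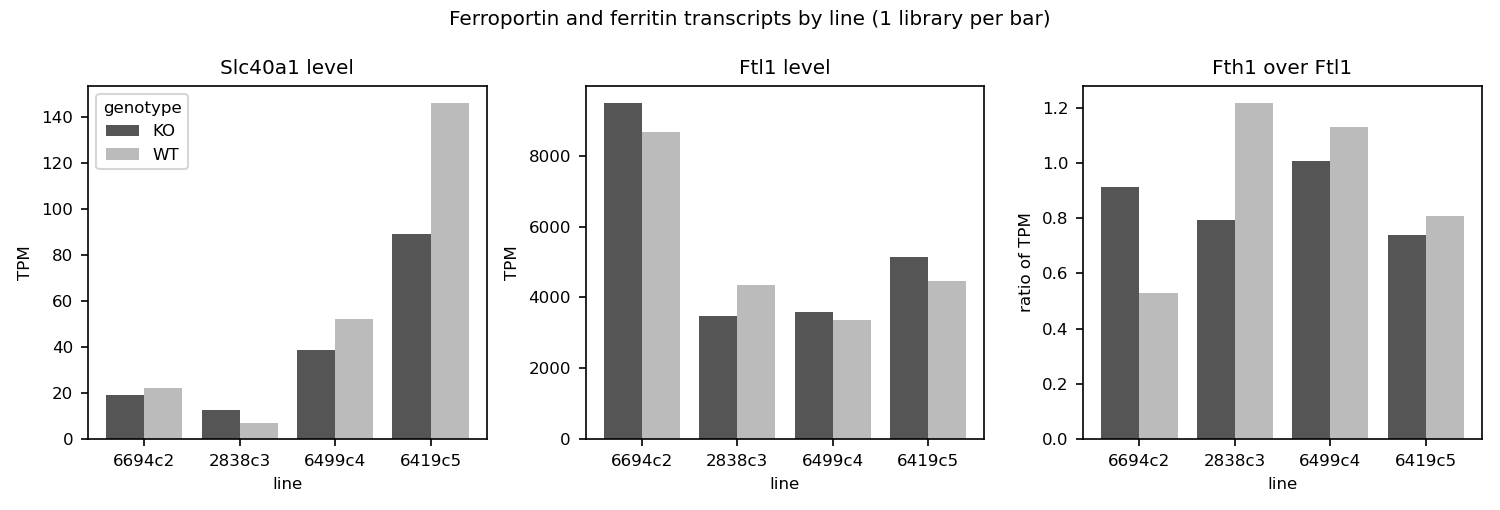
Slc40a1 and Ftl1 levels in TPM and the ratio of Fth1 to Ftl1 TPM (vertical axes) in each line, with 1 bar per library, KO dark and WT light. Slc40a1 is highest in 6419c5 and lowest in 2838c3 in both genotypes, Ftl1 is highest in 6694c2, and the Fth1 to Ftl1 ratio is higher in KO than in WT in 6694c2 alone.

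The genes whose log2(TPM + 1) followed Tfrc and Hmox1 best over the 8 libraries were looked up among 11244 named protein-coding genes. The points share cell lines in pairs and 1 scaling, so the correlations are descriptions. For Hmox1 the highest Pearson's r belonged to Blvrb, a biliverdin reductase (r = 0.936, 8 libraries). Next came the acetyltransferase gene Kat8 (0.933), the keratin Krt23 (0.918), the translation factor Eif3c (0.917) and Angptl6 (0.916). For Tfrc they were the mRNA cleavage factor gene Cpsf7 (0.951), Prps1l3 (0.935), Ndrg3 (0.933), the death receptor adaptor Fadd (0.932) and Alms1 (0.932). The KO differences of these 5 genes, from -0.26 to -0.06, were smaller than that of Tfrc. Prps1l3 is a close copy of Prps1, and its reads can be shared.

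Blvrb stood at 91.5, 41.1, 24.8 and 43.5 TPM in the KO libraries of 6694c2, 2838c3, 6499c4 and 6419c5, against 38.0, 24.6, 17.4 and 36.1 TPM in the WT libraries. Each KO library was above its parent, at 1.47, 0.80, 0.60 and 0.42, which restates its choice by likeness to Hmox1. Its estimate was 0.83 with an SE of 0.19, and its adjusted limma p was 0.556. In the list of heme synthesis, transport and breakdown, 0 of the 15 genes tested passed the adjusted threshold. At an unadjusted p 1 was higher, Blvrb, and 2 were lower, Fech and Blvra, beside 0.860% of all genes higher and 7.95% lower. The list's median was 0.06, beside 0 for all genes by construction. Hmox2, the constitutive heme oxygenase, was at 45.7 to 79.1 TPM in KO and 50.9 to 89.3 TPM in WT libraries. The heme importer Slc48a1 had a difference of 0.34 (SE 0.17), Uros of heme synthesis -0.30 (SE 0.21) and the other biliverdin reductase, Blvra, -0.37 (SE 0.22).

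Further lists around iron were described by counts, and in none of them did a gene pass the adjusted threshold. Of 24 other genes of iron uptake, export and handling 17 were tested, and the median was 0.02. An unadjusted p was passed by 2, both lower, beside 7.95% of all genes lower. The lower ones were the transferrin gene Trf at -0.75 (SE 0.36) and the ferroxidase ceruloplasmin, Cp, at -0.65 (SE 0.29). Trf was at 74.5, 47.4, 0.599 and 69.5 TPM in the KO libraries of 6694c2, 2838c3, 6499c4 and 6419c5, against 330, 37.7, 1.65 and 145 TPM in the WT libraries, so it was lower in KO in all lines but 2838c3. The highest were Steap1 at 0.34 (SE 0.28) and the endocytic adaptor Picalm at 0.29 (SE 0.19). Fbxl5, the iron-sensing subunit of the ligase that removes the Ireb2 protein, was at 25.8 to 44.0 TPM in KO and 32.6 to 38.2 TPM in WT libraries.

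Other transcripts with a described iron-responsive element showed no shared direction. The hypoxia factor Epas1, the kinase Cdc42bpa and the phosphatase Cdc14a had differences of 0.14 (SE 0.39), 0.13 (SE 0.17) and -0.14 (SE 0.20), and the erythroid Alas2 was too low to be tested. Factors known to destroy Tfrc mRNA or related mRNAs had a median of -0.11 over 6 genes. Of these 1 was lower by an unadjusted p, beside 7.95% of all genes. It was Rc3h1 at -0.25 (SE 0.15), or -0.395 before the median was subtracted. Zc3h12a, the Regnase-1 gene, was at 7.34 to 14.8 TPM in KO and 8.82 to 16.6 TPM in WT libraries. Zfp36, Zfp36l1 and Zfp36l2, of the tristetraprolin family, had differences of -0.24 (SE 0.19), 0.03 (SE 0.35) and 0.23 (SE 0.27). Rc3h2, a relative of Rc3h1, had a difference of -0.19 (SE 0.18).

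Among 20 tested genes of mitochondrial iron and iron-sulfur cluster assembly the median was 0.02. An unadjusted p was passed by 1, in the lower direction, beside 7.95% of all genes. The assembly factor Lyrm4 was at -0.27 (SE 0.21). The mitochondrial iron importer mitoferrin 1, Slc25a37, had the largest difference at 0.42 (SE 0.14) and was higher in KO in all 4 lines, and the cytosolic assembly factor Ciao2b followed at 0.29 (SE 0.13). The metal response list, with metallothioneins Mt1 and Mt2 at 0.05 (SE 0.29) and -0.17 (SE 0.23), Slc30a1 at -0.18 (SE 0.20) and Mtf1 at 0.00 (SE 0.16), had 0 of 4 at an unadjusted p and a median of -0.09.

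The NRF2 targets had a median of 0.00 over 18 genes, and 3 of them passed an unadjusted p, all lower: Gstm1, Gsta4 and Ephx1. Of all genes 7.95% were lower at an unadjusted p and 0.860% higher. Lower calls made up 90.2% of all calls, against 56.7% after median-ratio scaling, so their direction is no trait of this list. Slc7a11, the cystine importer, was at 0.57 (SE 0.46) and Srxn1 at 0.38 (SE 0.34), against Ephx1 at -0.45 (SE 0.21) and Gstm1 at -0.66 (SE 0.33). Fth1 had the same signs as the median of these targets in 6694c2, 2838c3 and 6419c5, which is given side by side and was not tested. Among 7 NRF2 regulators 1 was lower at an unadjusted p, Nfe2l2, which encodes NRF2 itself, at -0.52 (SE 0.18) and lower in KO in all 4 lines. Bach1, the heme-sensing repressor of Hmox1, was at -0.14 (SE 0.17), Maff at 0.49 (SE 0.21) and Sqstm1 at 0.82 (SE 0.35). Sqstm1 stood at 1763 TPM in the 6694c2 KO library against 402 TPM in its parent, the pair with the largest Hmox1 difference. In 2838c3, 6499c4 and 6419c5 Sqstm1 was at 303, 486 and 775 TPM in KO, against 292, 439 and 607 TPM in WT. Its difference was smallest in 2838c3, the line with the next largest Hmox1 difference.

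**Figure D4:**
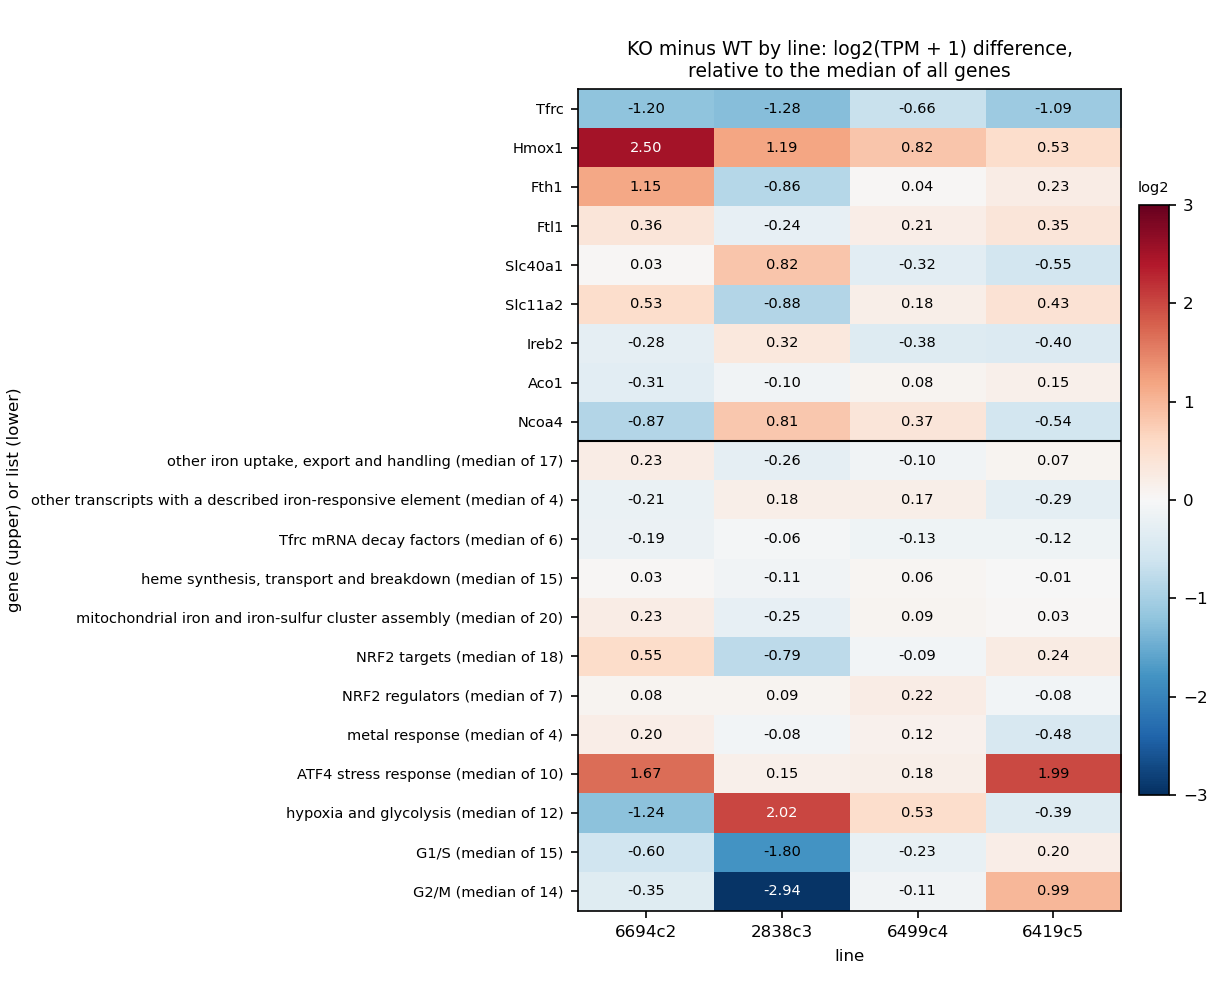
KO minus WT difference on the log2(TPM + 1) scale relative to the median of all genes, for each iron gene (upper rows) and as the median of each list (lower rows) in the 4 lines, with red for higher and blue for lower in KO. The rows of Tfrc and Hmox1 keep 1 colour, while the list rows reach -2.94 and 2.02 in 2838c3 and 1.67 and 1.99 for the ATF4 list in 6694c2 and 6419c5.

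Over the 12 lists of iron, heme, stress and cell cycle genes, markers of cell types left out, 142 entries were tested. An unadjusted p called 6 of them higher and 18 lower, beside 0.860% and 7.95% of all genes. Of the 18 lower entries, 8 were G1/S genes, and of the 6 higher ones 5 were ATF4 response genes. After median-ratio scaling the counts were 8 higher and 5 lower.

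Markers of other cell types were measured beside the iron genes. Of the ductal and epithelial markers, Krt8, Krt18 and Krt19 were abundant. Krt8 was at 4095 to 8257 TPM in KO and 4420 to 7928 TPM in WT libraries. Krt7 was at 21.6 TPM in KO and 35.3 TPM in WT in the line 6694c2. In the other lines Krt7 was at 425 to 1397 TPM in KO and 374 to 1256 TPM in WT. Epcam was low, at 1.21 to 27.1 TPM in KO and 1.35 to 44.9 TPM in WT libraries. Sox9 and Cldn4 were low as well, with Cldn4 at 0.146 to 8.88 TPM in KO and 0.167 to 2.84 TPM in WT libraries. Of the 10 macrophage markers 3 passed the filter, and their summed level was 264 to 459 TPM in KO and 308 to 412 TPM in WT libraries, most of it Cd14. Cd68 was at 7.63 to 28.1 TPM in KO and 5.49 to 14.2 TPM in WT libraries, and Mrc1 at 11.8 to 26.5 TPM in KO and 6.43 to 19.6 TPM in WT libraries. Both were higher in KO in all lines but 6694c2. The defining Ptprc, Adgre1 and Cd163 reached at most 0.151 TPM in any library. The part of such cells in the iron values was not tested. Erythroid markers summed to 5.21 to 23.0 TPM in KO and 4.95 to 21.7 TPM in WT libraries. Their highest members were Hba-a1, at 0.545 to 10.9 TPM in KO and 0.697 to 17.1 TPM in WT libraries, and Epor, at 1.52 to 8.55 TPM in KO and 0.932 to 5.87 TPM in WT libraries. Fibroblast markers summed to 6.18 to 9.84 TPM in KO and 6.32 to 10.7 TPM in WT libraries, and endothelial ones to 0.245 to 2.81 TPM in KO and 0.265 to 4.34 TPM in WT libraries. In such bulk RNA a smaller share of cells with a transcript and less of it per cell cannot be told apart.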

How the data were processed

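The deposited values are TPM for 49315 Ensembl gene identifiers in 8 libraries, computed by the authors. The submitters' processing notes name the mm39 build and, with no order, DESeq2 2.11.40.8, featureCounts 2.1.1, STAR 2.7.11b and cutadapt 5.1. The sources used here do not give the gene lengths behind TPM, and depth is unknown. GENCODE vM39 on GRCm39, the assembly of mm39, named 45505 identifiers and left 3810 without a name.

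Genes with at least 1 TPM in at least 4 libraries were kept. On log2(TPM + 1), terms for genotype and for line were fitted with limma 3.58.1 (R 4.3.3), using a variance trend, and p-values were adjusted over all 12900 genes. This scale understates changes of low genes. The line is a block because both libraries of a line come from it; their deviations from the group means correlated at 0.66, 0.42, 0.79 and 0.75. The fit was also run on simulated data with independent noise and KO effects equal in all lines. Those data held no shift of all genes and no KO effect that differs by line. They cannot show how the fit handles either. The genes and lists were chosen with earlier results of these data known. Named are the 10 genes, every gene of the 2 short lists on iron-responsive elements and Tfrc mRNA decay, the 2 highest and 2 lowest differences of each other iron, heme, NRF2 or metal list, and the 5 genes most like Tfrc and Hmox1. Some genes that this rule names are not reported here. Other genes were named after their values were seen. Tables and figures used Python 3.11.15, pandas 2.3.3 and matplotlib 3.10.9.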

Additional observations from a re-analysis of the deposited data

How the results depend on the processing

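Alternatives were a pseudocount of 0.1, no filter, a filter at 5 TPM, median-ratio scaling, quantile normalization and removal of structural RNA. That name stands here for identifiers without a name and small or ribosomal RNAs, after which TPM were rescaled. Further alternatives were no line block, each line left out, and both 6694c2 and 6419c5 left out. Tfrc stayed lower and Hmox1 higher in every line under all alternatives, with overall differences of -1.19 to -0.98 and 0.86 to 1.50 when 1 line was left out. The choice of these genes had fixed both directions in the deposited values. The difference in a line does not use the block, and leaving out other lines changes it only through the median of the genes kept. Those settings therefore could hardly change a direction. 0 genes passed the adjusted threshold for KO against WT throughout. The replicate block changed no call by adjusted p: without it the unadjusted counts were 34 higher and 176 lower, and 3 higher and 5 lower in the other lists. Unadjusted counts of higher genes were 214 with no filter, 275 with median-ratio scaling, 322 with quantile normalization, 300 without 6694c2 and 6419c5, and 79 to 159 with 1 line left out. Lower genes numbered 360 with median-ratio scaling, 333 with quantile normalization, 591 without structural RNA, 621 without both lines, and 564 to 1470 with 1 line left out. In the other lists the higher entries were 12 without both lines and 3 to 11 with 1 line left out. The lower ones were 10 with no filter, 5 with median-ratio scaling, 6 with quantile normalization, 9 without structural RNA, 36 without both lines and 9 to 25 with 1 line left out. Iron genes in 1 direction in all lines numbered 2 to 6 with 1 line left out, with Tfrc and Hmox1 always among them. Genes that differed between lines numbered 522 without both lines, where 1 iron gene passed, and 657 to 3677 with 1 line left out, where 1 to 2 iron genes passed. The causes of these changes were not tested. With 1 library per genotype and line, a difference in a single line cannot be told apart from a difference between cultures.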
